A study of Mus musculus with 6 samples.

Results

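The Krüppel-like factor genes Klf2, Klf4, Klf6, Klf10 and Klf13 and the inhibitor of DNA binding genes Id1, Id2 and Id3 were examined in mouse hematopoietic stem cells of mice labelled Yy1 knockout and wild type. The 8 genes were taken by symbol from the deposited table of 15553 genes, and each was found once. Of the 8, 6 passed the filter for testing, at least 1 RPKM (reads scaled by gene length and library size) in at least 3 of the 6 libraries, as did 13179 genes in all. Id1 and Id3 did not pass it and are given as values. The Yy1 knockout libraries came from mice carrying loxP-flanked Yy1 together with Mx1-Cre (Yy1f/f;Mx1-Cre), and the wild-type libraries from mice carrying Mx1-Cre, with 3 libraries of each. All were C57BL/6 mice of 6 to 8 weeks, so both genotypes shared the strain and the Cre transgene. Mx1-Cre places the recombinase under an interferon-inducible promoter that acts in many cell types besides stem cells. The labels do not say how or when it was induced, nor whether each library came from its own mouse, so p-values reflect library-to-library spread alone, which may be technical in part. The bone marrow gate was lineage-negative, Sca1+ and c-Kit+. The source field adds CD150+, whereas the extraction text adds CD48- with a CD150+ and a CD150- gate, so the gate of a given library is not settled. YY1, a Polycomb-associated zinc-finger factor, binds DNA directly, and the study addressed its role in stem cell quiescence.

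KLF proteins share a C-terminal set of zinc fingers that binds GC-rich and CACCC-type DNA, and they activate or repress genes according to the cofactors they recruit. Several of them restrain proliferation: KLF2 keeps T cells resting and controls their trafficking, and KLF4 acts in monocyte differentiation and in the reprogramming of cells to pluripotency. Klf2, Klf4, Klf6 and Klf10 are also known as rapidly inducible genes in many cell types. ID proteins hold a helix-loop-helix domain without a DNA-binding region, so they trap E proteins in dimers that cannot bind DNA. Id genes are classical targets of BMP signalling through SMAD proteins, and Id1, Id2 and Id3 have each been studied as regulators of hematopoietic stem cell maintenance.

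The promoters of Klf2, Klf4 and Klf6 are shown because these 3 genes varied together across the libraries. They are given 5′ to 3′ on the strand of the gene, from position -250 to position -31 relative to the RefSeq start (GRCm38.p6), with matches to the GC box GGGCGG and to the MEF2 site in capitals.
Klf2, chr8:72318812-72319031, plus strand: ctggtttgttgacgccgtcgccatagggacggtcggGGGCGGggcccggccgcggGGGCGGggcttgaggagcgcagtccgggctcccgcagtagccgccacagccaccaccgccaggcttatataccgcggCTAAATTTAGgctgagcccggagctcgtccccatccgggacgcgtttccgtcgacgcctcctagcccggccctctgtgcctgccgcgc
Klf4, chr4:55532506-55532725, minus strand: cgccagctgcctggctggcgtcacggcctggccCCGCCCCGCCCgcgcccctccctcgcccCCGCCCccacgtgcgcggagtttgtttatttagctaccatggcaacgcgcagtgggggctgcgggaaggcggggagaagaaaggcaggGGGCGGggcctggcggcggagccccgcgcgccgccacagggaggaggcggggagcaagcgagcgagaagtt
Klf6, chr13:5861239-5861458, plus strand: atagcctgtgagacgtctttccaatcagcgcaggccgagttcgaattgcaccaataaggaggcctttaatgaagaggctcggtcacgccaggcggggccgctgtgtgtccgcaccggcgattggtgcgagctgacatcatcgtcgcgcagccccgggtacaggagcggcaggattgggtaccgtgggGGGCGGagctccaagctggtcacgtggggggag
Both strands were searched. Promoter windows, from position -250 to 50 bases past the start, were found for 6 of the 8 genes, and Klf10 and Id1 had none in the table used. The GC box, a binding sequence of SP and KLF proteins, was in 6 of the 6 windows and in 35.7% of 32851 mouse promoter windows of the same length. The MEF2 site was in 1 of the 6, that of Klf2, as the CTAAATTTAG capitals at position -118, and in 3.19% of all windows. MEF2 factors are known activators of Klf2 downstream of the kinase ERK5. The CACCC motif was in 4 of the 6 (57.5% of all), and the GGCGCC element bound by BMP-regulated SMAD proteins was in 1 of the 6, that of Id2 (11.9% of all). The YY1 core CCATNTT (16.1% of all), the cAMP response element TGACGTCA (1.79% of all) and the CArG box of serum response factor (1.63% of all) were in none of the 6. These matches describe letters in a window and not sites shown to be bound.

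Library sizes recovered from the RPKM values were 17402756 to 19535460 reads in the Yy1 knockout libraries and 12920190 to 16112105 reads in the wild-type libraries. Recovered reads summed over listed genes came to 19473172 to 21757053 in knockout and 15102998 to 18459988 in wild type. These sums were 1.114 to 1.119 times the library size in knockout and 1.146 to 1.173 times in wild type. A true sum cannot exceed its library size, so the sums are not exact depths, and the cause of the excess was not tested. Wild-type replicate 3 stood apart, with 1991 genes listed at 0 against 373 to 1099 in the other 5 libraries. Yy1 itself stood at 36.2, 16.6 and 28.5 RPKM in the libraries labelled Yy1 knockout, against 31.6, 42.3 and 52.1 RPKM in wild type. Of these, the library labelled Yy1 knockout replicate 1 fell inside the range of the wild-type values, and the log2 fold change of -0.66 had an adjusted p of 0.68 in limma. The values are per gene, the deleted segment is not given in the labels, and knockout below means the libraries so labelled. The 13 genes examined as stem cell markers were all listed. They include Cd34, Flt3 and Cd48, so their sum is not specific to the gated cells. The summed levels were 408, 435 and 449 RPKM in knockout and 635, 594 and 694 RPKM in wild type. Exact permutation of these sums gave p = 0.1, and with 3 libraries per genotype it cannot fall lower. Kit stood at 78.8 ± 3.27 RPKM in knockout and 126 ± 14.1 RPKM in wild type (SD, n = 3 each; later means likewise). Cd48, the gene of the marker that the gate leaves out, was listed at 0, 1.97 and 0.43 RPKM in knockout and at 0, 3.76 and 0 RPKM in wild type. In bulk libraries such as these, fewer cells of a type and less RNA per cell cannot be told apart.

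Klf6 was the most abundant of the 8 genes in each of the 6 libraries. By group mean, the order of levels in RPKM was Klf6, Klf2, Klf4, Klf10, Klf13, Id2, Id1, Id3 in knockout and the same in wild type. Klf6 held between 60.3% and 67.9% of the summed RPKM of the 5 KLF genes in knockout, and between 51.9% and 61.1% in wild type. In knockout, the ranges did not overlap between Klf6 and Klf2 and between Klf4 and Klf10, while the other neighbours in the order overlapped. In wild type, Klf10 lay clear of Klf13 and Klf13 clear of Id2, while the other neighbours overlapped. The ID genes were low: the 3 together summed to 1.31, 10.7 and 4.96 RPKM in knockout, against 3.61, 6.14 and 0.0961 RPKM in wild type.

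**Figure D1:**
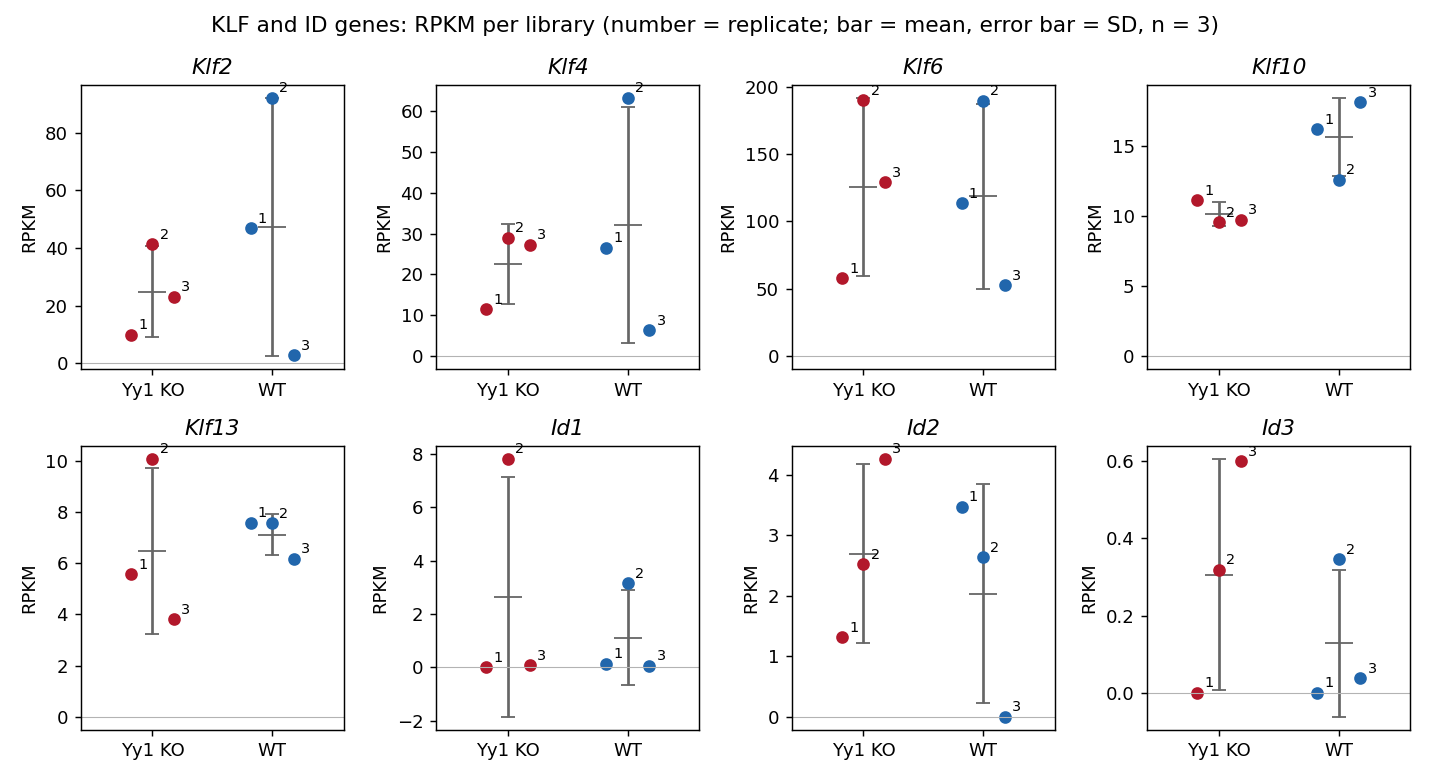
RPKM of the 8 genes in each library, Yy1 knockout (red, left) and wild type (blue, right), with the replicate number beside each point, the mean as a bar and the SD as an error bar (n = 3 each). Klf10 is the gene whose genotypes do not overlap (9.55 to 11.1 RPKM in knockout, 12.6 to 18.1 RPKM in wild type), and Klf2, Klf4 and Klf6 are highest in replicate 2 of each genotype.

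No KLF or ID gene passed the test between the genotypes. In limma on log2(RPKM + 0.5), 0 of the 6 tested members had a Benjamini-Hochberg adjusted p under 0.05, as did 0 of 13179 genes (0.0%). At an unadjusted p under 0.05 there was 1 member, Klf10, lower in knockout, where 7.79% of all genes passed (1027 genes), 4.73% higher and 3.06% lower. The limma-voom test of recovered reads called 6 genes of 13114 (0.0458%) and the authors' deposited results called 24 of 15553 (0.154%), and none of these was a member. An unadjusted p under 0.05 was given to 8.02% of all genes in the authors' deposited table, and to none of the 8 members.

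Klf10 was the member whose genotypes did not overlap. The gene (ENSMUSG00000037465, chromosome 15, 38291463 to 38300706, minus strand, GRCm38) encodes a TGF-beta-inducible repressor that binds the SIN3A corepressor. Klf10 stood at 11.1, 9.55 and 9.72 RPKM in knockout, against 16.2, 12.6 and 18.1 RPKM in wild type. Each knockout value lay below each wild-type value, as was so for 6.87% of all tested genes. The means were 10.1 ± 0.847 RPKM in knockout and 15.6 ± 2.80 RPKM in wild type. On the log2 scale the difference was -0.59 (SE 0.25, 95% confidence interval -1.17 to -0.0039), and the limma adjusted p was 0.639. In the authors' deposited table the log2 fold change of Klf10 was -0.60 with an adjusted p of 0.69. Its sign was negative in each alternative run, with values of -0.73 to -0.48 when 1 library was left out, and -0.65 without the library labelled Yy1 knockout replicate 1.

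Klf2 varied far more between libraries of a genotype than between the genotypes. The gene (ENSMUSG00000055148) lies on chromosome 8, 72319033 to 72321656, plus strand. Klf2 stood at 9.96, 41.3 and 23.1 RPKM in knockout, against 46.8, 92.0 and 2.75 RPKM in wild type. The highest and the lowest of the 6 values were both wild type, replicates 2 and 3, which differed 33.5-fold, and the highest knockout value was 4.15-fold the lowest. Its log2 fold change was -0.15 (SE 1.17), with a limma adjusted p of 0.983. Its confidence interval of -2.87 to 2.56 allows large changes in either direction. Without wild-type replicate 3 the log2 fold change was -1.60 (adjusted p = 0.543, limma), and without wild-type replicate 2 it was 0.81 (adjusted p = 0.866, limma). It was 0.38 without the library labelled Yy1 knockout replicate 1 and 0.33 without wild-type replicate 1, so its sign depended on which library was kept.

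Klf4 (ENSMUSG00000003032, chromosome 4, 55527143 to 55532466, minus strand) had the same highest and lowest libraries. It stood at 11.4, 29.0 and 27.3 RPKM in knockout, against 26.5, 63.2 and 6.39 RPKM in wild type. All 3 knockout values fell between the wild-type extremes. The difference was -0.10 on the log2 scale (SE 0.77, limma adjusted p = 0.985), and its interval ran from -1.88 to 1.69. The sign turned without wild-type replicate 2 (0.65), wild-type replicate 1 (0.03) or the library labelled Yy1 knockout replicate 1 (0.33), and the value was -0.96 without wild-type replicate 3.

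Klf6 (ENSMUSG00000000078, chromosome 13, 5861482 to 5870394, plus strand) encodes a growth-restraining factor expressed in many tissues. It stood at 57.8, 190 and 129 RPKM in knockout, against 113, 189 and 52.5 RPKM in wild type. Both genotypes covered nearly the same range. The difference was 0.11 on the log2 scale (SE 0.55, limma adjusted p = 0.975; interval -1.17 to 1.39). It turned to -0.27 when knockout replicate 2 was left out and to -0.38 without wild-type replicate 3, and was 0.59 without the library labelled Yy1 knockout replicate 1.

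Klf13 (ENSMUSG00000052040, chromosome 7, 63886351 to 63938915, minus strand) encodes a family member that represses through SIN3A and is known as an activator of Ccl5 in T cells. It was lower than Klf2, Klf4 and Klf6 by group mean. Its highest value was 1.2-fold the lowest in wild type and 2.7-fold the lowest in knockout. Klf13 stood at 5.56, 10.1 and 3.80 RPKM in knockout, against 7.57, 7.55 and 6.17 RPKM in wild type. The wild-type values lay inside the wider knockout range. The difference was -0.22 on the log2 scale (SE 0.41, limma adjusted p = 0.924; interval -1.17 to 0.73), and leaving out knockout replicate 3 gave 0.081, and leaving out knockout replicate 2 gave -0.57.

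Id2 (ENSMUSG00000020644, chromosome 12, 25093799 to 25097140, minus strand), which is needed for natural killer and innate lymphoid cells, was the ID gene that could be tested. Id2 stood at 1.31, 2.52 and 4.27 RPKM in knockout, against 3.47, 2.64 and 0 RPKM in wild type. The 0 in wild-type replicate 3 allows up to 0.0832 RPKM, the level of 3 reads, and covers counting error alone. The other 5 libraries overlapped between the genotypes. The difference was 0.69 on the log2 scale (SE 0.89, limma adjusted p = 0.877; interval -1.38 to 2.76), and it was -0.25 without wild-type replicate 3. The estimate for Id2 varied between settings, at 2.42 in limma-voom, 1.35 with a pseudocount of 0.1, 0.47 with a pseudocount of 1, 0.27 in limma-voom with a replicate block and 0.19 with array weights, with no call in any of these. In the authors' deposited table the log2 fold change of Id2 was 2.0 with an adjusted p of 0.81.

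Id1 (ENSMUSG00000042745, chromosome 2, 152736251 to 152737410, plus strand) was present in replicate 2 of each genotype and near 0 in the other libraries. Recovered reads of Id1 numbered 0, 159 and 2 in knockout and 2, 59 and 1 in wild type. The values were 0, 7.83 and 0.0883 RPKM in knockout, against 0.133, 3.16 and 0.0583 RPKM in wild type, and the 0 in the library labelled Yy1 knockout replicate 1 allows up to 0.149 RPKM. Id3 (ENSMUSG00000007872, chromosome 4, 136143497 to 136145755, plus strand) had 0, 10 and 21 reads in knockout and 0, 10 and 1 reads in wild type, and no library reached 1 RPKM. Neither gene was tested in limma, since each failed the filter. The spread of Id1 within each genotype was wide, with 0 and 159 reads in 2 knockout libraries of nearly equal recovered size (17402756 and 17496160 reads). In the authors' deposited table their adjusted p-values were 0.987 for Id1 and 0.959 for Id3.

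**Figure D2:**
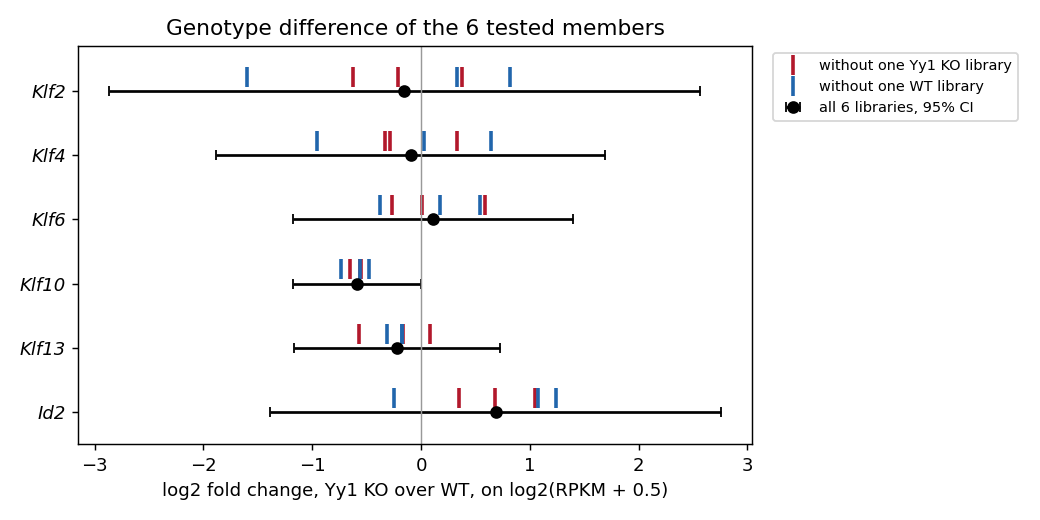
Log2 fold change of the 6 tested genes, Yy1 knockout over wild type, with the 95% confidence interval from limma (black) and the values with 1 knockout library (red ticks) or 1 wild-type library (blue ticks) left out. For Klf2, Klf4, Klf6, Klf13 and Id2 the ticks lie on both sides of 0, while for Klf10 they run from -0.73 to -0.48.

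Klf2, Klf4 and Klf6 were among the more variable genes of their level. The SD of log2(RPKM + 0.5) within the genotypes was 1.94 for Klf2, 1.26 for Klf4 and 0.90 for Klf6, against a median of 0.31 over the 3143 tested genes with a mean of at least 20 RPKM. Of those genes, 1.81% had a larger SD than Klf2, 3.44% a larger one than Klf4 and 5.82% a larger one than Klf6. The SD of Klf10, whose values lay under 20 RPKM, was 0.20. It was ranked in a different set, all 13179 tested genes, whose median SD was 0.49. Of these, 90.0% had a larger SD than Klf10, so its rank cannot be set beside those of the other 3 genes.

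These 3 genes varied together from library to library. Each was highest in replicate 2 and lowest in the library labelled Yy1 knockout replicate 1 among the knockout libraries, and highest in replicate 2 and lowest in replicate 3 among the wild-type libraries. This order, read from these 3 genes, was also that of 9 of the 17 tested immediate-early genes and of 2.90% of all tested genes. Across the 6 libraries, as a description, Pearson's r on the log2 scale was 0.97 for Klf2 with Klf4, 0.93 for Klf4 with Klf6 and 0.90 for Klf2 with Klf6. With the library labelled Yy1 knockout replicate 1 and wild-type replicate 3 left out, the 2 farthest from the median of Klf2, r was 0.84 for Klf2 with Klf4 and 0.52 for Klf2 with Klf6, so the value for Klf2 with Klf6 rests in good part on those libraries. With wild-type replicates 2 and 3 left out, the 2 farthest from the median of Klf4, r was 0.93 for Klf4 with Klf6. All these points share the depth and the makeup of their library. For Klf10, r was -0.38 with Klf2, -0.42 with Klf4 and -0.50 with Klf6 over the 6 libraries. With the same libraries left out for Klf2 and Klf4, r was 0.48 for Klf2 with Klf10 and 0.0026 for Klf4 with Klf10, and for Klf6 with Klf10 it was -0.48 without the library labelled Yy1 knockout replicate 1 and wild-type replicate 3.

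Immediate-early genes, such as Fos, Jun and Egr1, are switched on rapidly in stimulated or handled cells by factors already present, and most of them were high in the same libraries. Of 20 such genes, 17 were tested, and none passed between the genotypes (6 above 0, 11 below 0, median log2 fold change -0.06 against 0.02 over all genes). Within knockout 15 of the 17 were highest in replicate 2, and within wild type likewise 15 of the 17. Highest in replicate 2 of both genotypes were 13 of the 17, against 9.70% of all tested genes. Fos stood at 233, 434 and 308 RPKM in knockout and at 407, 493 and 129 RPKM in wild type. Egr1 stood at 63.3, 183 and 94.9 RPKM in knockout and at 109, 198 and 41.8 RPKM in wild type. The median r with the 17 genes over the 6 libraries was 0.90 for Klf2, 0.87 for Klf4, 0.86 for Klf6, 0.57 for Klf13, 0.62 for Id2 and -0.29 for Klf10, while the medians over all tested genes lay between -0.05 for Klf10 and 0.04 for Klf6. Fos and Egr1 are shown as well-known members and were chosen after their values were seen. The 3 genes of the list with the smallest p were Ier2 at 43.5, 88.2 and 33.5 RPKM in knockout and 101, 117 and 48.3 RPKM in wild type, Ier3 with a log2 fold change of -0.47 and Junb with -0.61, all with overlap.

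Granulocyte markers were also highest in replicate 2 of each genotype. Of 10 such genes 9 were listed, and their summed level was 35.8, 307 and 56.5 RPKM in knockout, against 70.7, 174 and 17.7 RPKM in wild type (exact permutation p = 0.7, two-sided, where 0.1 is the smallest this design allows). This held for all 7 tested markers, while their lowest libraries were mixed. Within knockout 3 of the 7 were lowest in replicate 1 and 4 in replicate 3. Within wild type 3 were lowest in replicate 1 and 4 in replicate 3. S100a9, a calcium-binding protein gene of neutrophils, stood at 12.1, 149 and 28.2 RPKM in knockout and 36.3, 86.4 and 3.63 RPKM in wild type. The granule gene Ngp stood at 3.86, 39.2 and 13.6 RPKM in knockout and 12.1, 26.8 and 0 RPKM in wild type. The defining granule gene Elane was listed at 0 in replicates 1 and 3 of both genotypes and at 3.23 RPKM in knockout replicate 2 and 2.77 RPKM in wild-type replicate 2. The part of granulocyte RNA or of the immediate-early response in the levels of Klf2, Klf4, Klf6 and Id1 was not tested.

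**Figure D3:**
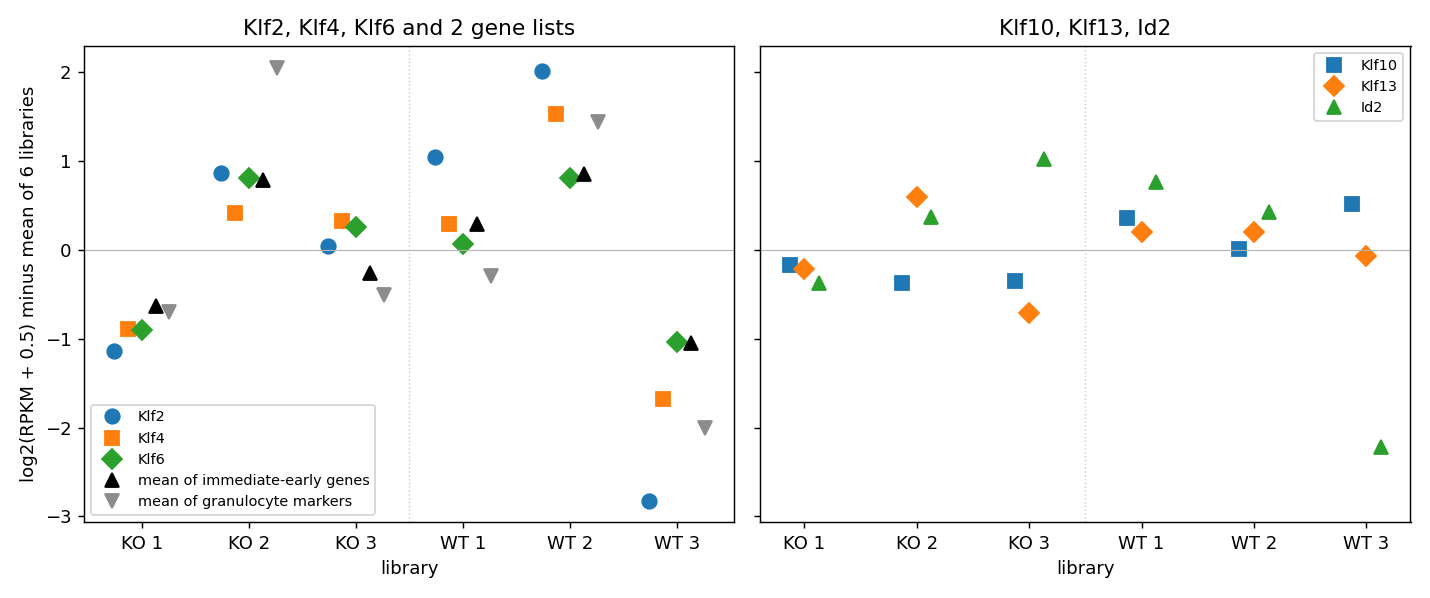
Log2(RPKM + 0.5) minus its mean over the 6 libraries, for Klf2, Klf4, Klf6 and the means of 17 immediate-early genes and 7 granulocyte markers (left) and for Klf10, Klf13 and Id2 (right), with the Yy1 knockout libraries left of the wild-type libraries. The left symbols are high in replicate 2 of each genotype and low in knockout replicate 1 and wild-type replicate 3, and the mean of the immediate-early genes runs from -0.63 to 0.79 over the knockout libraries and from -1.05 to 0.86 over the wild-type libraries. The mean of the granulocyte markers is also below 0 in knockout replicate 3 (-0.50) and wild-type replicate 1 (-0.29).

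Of the other marker lists, only some were highest in replicate 2 of each genotype. T and NK cell markers (Nkg7 and Klrb1c the most abundant, 3 of 9 listed) summed to 4.32, 9.58 and 6.94 RPKM in knockout and 5.07, 18.3 and 11.6 RPKM in wild type, highest in replicate 2 of each genotype (exact permutation p = 0.3). Megakaryocyte markers summed to 113, 52.8 and 54.5 RPKM in knockout and 33.2, 36.6 and 21.3 RPKM in wild type (7 of 8 listed; exact permutation p = 0.1, the smallest possible), led by Pf4 at 26.9 ± 19.2 RPKM in knockout and 7.28 ± 3.69 RPKM in wild type and by Itga2b at 23.4 ± 5.59 RPKM in knockout and 14.1 ± 4.47 RPKM in wild type. Erythroid markers summed to 67.3, 72.9 and 146 RPKM in knockout and 44.4, 48.1 and 64.7 RPKM in wild type (8 of 10 listed; exact permutation p = 0.1), with Hbb-bs and Hbb-bt as the most abundant. Monocyte and macrophage markers summed to 75.8 to 121 RPKM in knockout and 89.3 to 132 RPKM in wild type (6 of 10 listed; exact permutation p = 0.4), mostly Lyz2 and then Ms4a6c. Low sums were found for B cell (Cd79b, 9.15 to 21.4 RPKM in knockout and 13.3 to 28.6 RPKM in wild type), mast cell, basophil and eosinophil (Cpa3, 0.565 to 3.34 RPKM in knockout and 0 to 7.09 RPKM in wild type) and endothelial and stromal markers (Pecam1 and Pdgfrb, 9.88 to 13.3 RPKM in knockout and 12.9 to 17.6 RPKM in wild type). Exact permutation p-values of these 3 lists were 0.5, 0.7 and 0.2. The mean log2 deviation of the tested erythroid and monocyte and macrophage markers was also highest in replicate 2 of each genotype, at 0.84 in knockout and 0.11 in wild type for erythroid markers and at 0.39 in knockout and 0.31 in wild type for monocyte and macrophage markers.

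Relatives of the KLF genes did not pass either. Of 12 other Klf genes 8 were listed and 7 tested, with 1 above 0, 6 below 0 and a median log2 fold change of -0.245. The 3 with the smallest p were Klf7 at 3.86 ± 1.01 RPKM in knockout and 5.44 ± 0.752 RPKM in wild type, Klf16 at 4.31 ± 2.71 RPKM in knockout and 7.11 ± 4.62 RPKM in wild type, and Klf3, whose product recruits the CtBP corepressors, at 9.12 ± 1.52 RPKM in knockout and 11.5 ± 3.33 RPKM in wild type. All 3 overlapped between the genotypes. Of 9 Sp genes, which encode related GC-box binding proteins, 4 were tested with a median of -0.05. Sp1 stood at 33.0 ± 3.50 RPKM in knockout and 33.9 ± 0.131 RPKM in wild type, and Sp3 stood at 23.6 ± 8.52 RPKM in knockout and 21.6 ± 3.30 RPKM in wild type. Sp2 did not overlap, at 5.72 ± 1.66 RPKM in knockout and 8.89 ± 1.33 RPKM in wild type (limma adjusted p = 0.72).

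By group mean, the E protein genes, whose products pair with ID proteins, had higher RPKM than each Id gene. The E protein genes Tcf3, Tcf4 and Tcf12, all 3 tested, had a median log2 fold change of -0.05 with none past the threshold. Tcf3 stood at 17.8, 12.9 and 8.78 RPKM in knockout, against 15.1, 11.7 and 1.36 RPKM in wild type. The low value was wild-type replicate 3, the library in which Id2 was listed at 0. Tcf4 averaged 7.68 ± 1.36 RPKM in knockout and 8.01 ± 1.79 RPKM in wild type, and Tcf12 9.60 ± 0.382 RPKM in knockout and 11.6 ± 3.47 RPKM in wild type. Among 4 tested genes of other helix-loop-helix factors the median was -0.37. Tal1, a stem cell and erythroid factor that pairs with E proteins, did not overlap, at 35.9 ± 5.06 RPKM in knockout and 47.7 ± 5.26 RPKM in wild type (limma adjusted p = 0.664). Lyl1 stood at 21.0 ± 9.47 RPKM in knockout and 36.4 ± 17.9 RPKM in wild type and the Notch target Hes1 at 4.01 ± 2.88 RPKM in knockout and 2.32 ± 2.35 RPKM in wild type, both with overlap.

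Upstream of the Id genes, 20 of 24 BMP and TGF-beta pathway genes were tested and none passed, with 7 above 0, 13 below 0 and a median of -0.10. At an unadjusted limma p under 0.05 there were 3 of the 20, all lower in knockout and without overlap. Over all tested genes, 3.06% were lower at that p. Smad7, an inhibitory SMAD gene that is itself a target of TGF-beta signalling, stood at 4.23, 7.71 and 3.57 RPKM in knockout, against 10.99, 10.7 and 9.56 RPKM in wild type. It differed by -1.01 on the log2 scale (SE 0.36, limma adjusted p = 0.586). Eng, which encodes the co-receptor endoglin, averaged 20.1 ± 2.08 RPKM in knockout and 31.9 ± 8.23 RPKM in wild type, and the activin receptor gene Acvr2b 1.86 ± 1.71 RPKM in knockout and 5.87 ± 1.74 RPKM in wild type. In the list as a whole 4 of the 20 tested genes were lower and 2 higher without overlap, against 6.87% and 7.63% of all tested genes.

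Upstream of Klf2, 9 of 10 ERK5, MEF2 and FOXO genes were tested, with a median of -0.05 and none past the threshold. Map2k5, the kinase that activates ERK5, did not overlap, at 17.3, 24.7 and 25.9 RPKM in knockout, against 32.1, 40.2 and 36.3 RPKM in wild type. It differed by -0.68 on the log2 scale (SE 0.22, limma adjusted p = 0.56). Foxo3 averaged 24.9 ± 5.11 RPKM in knockout and 34.8 ± 5.85 RPKM in wild type, and Map3k3 14.4 ± 1.16 RPKM in knockout and 10.99 ± 3.77 RPKM in wild type, both with overlap. Of 5 trafficking genes that KLF2 controls in lymphocytes 4 were tested, with a median of 0.24. None passed. Itgb7 stood at 4.48 ± 1.79 RPKM in knockout and 3.84 ± 1.99 RPKM in wild type and S1pr4 at 10.8 ± 0.632 RPKM in knockout and 20.2 ± 14.5 RPKM in wild type.

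Among 6 tested cell cycle genes that KLF and ID proteins are known to regulate, the median was -0.08 and none passed. Cdkn1b, the gene of the inhibitor p27, did not overlap, at 11.4 ± 1.04 RPKM in knockout and 15.5 ± 1.34 RPKM in wild type (limma adjusted p = 0.711). Ccnd1 stood at 19.7 ± 2.51 RPKM in knockout and 13.5 ± 6.39 RPKM in wild type and Ccne1 at 2.85, 4.10 and 4.87 RPKM in knockout, against 0, 0.07 and 4.45 RPKM in wild type. KLF corepressor genes had a median of 0.25 over 6 tested genes, with the smallest p for Ctbp2 at 12.8 ± 3.26 RPKM in knockout and 8.76 ± 0.873 RPKM in wild type, Sin3b (log2 fold change 0.56) and Hdac1 (0.43), all with overlap. Of 4 genes of KLF and ID protein turnover, 3 were higher in knockout without overlap, where 7.63% of all genes were, and the list median was 0.68. Usp1, whose enzyme stabilises ID proteins, stood at 66.6, 57.6 and 62.3 RPKM in knockout, against 38.1, 43.4 and 51.7 RPKM in wild type, and Wwp1, a ubiquitin ligase gene that acts on KLF2, at 10.7, 10.1 and 7.77 RPKM in knockout, against 4.27, 6.06 and 4.34 RPKM in wild type. Fzr1, an activator of the anaphase-promoting complex, averaged 10.7 ± 2.02 RPKM in knockout and 5.88 ± 2.32 RPKM in wild type. Their limma adjusted p-values were 0.597, 0.586 and 0.653, so none passed.

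**Figure D4:**
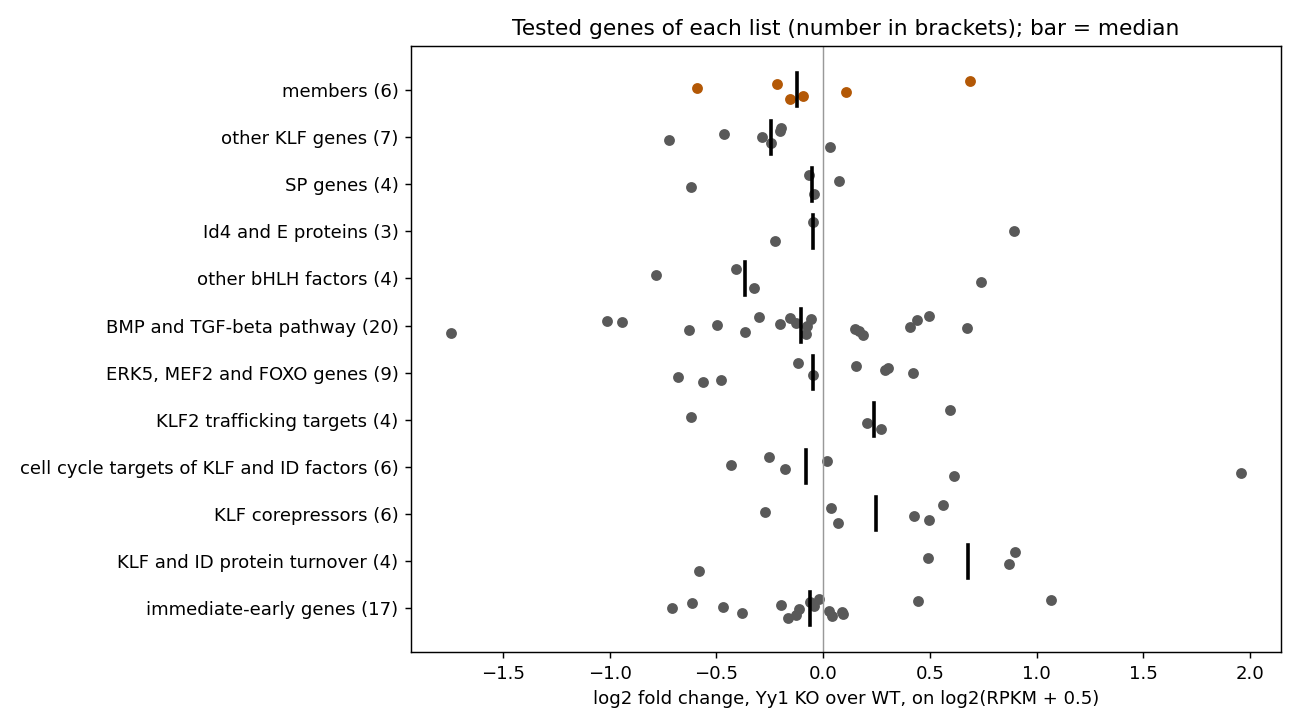
Log2 fold change, Yy1 knockout over wild type, of each tested gene in the member list and in 11 lists of related genes, with the number tested in brackets and the median as a bar. None of these genes passed in limma, and the medians run from -0.37 for other helix-loop-helix factors to 0.68 for protein turnover genes.

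The genes most like each member, by Pearson's r over the 6 libraries among tested genes with a mean of at least 5 RPKM, give a description without a test. For Klf2 they were 1810043H04Rik (0.993) and Usp54 (0.992), for Klf4 Usp54 (0.992) and Fam98b (0.992), and for Klf6 the gene listed as Gm16470 (0.986) and the heat shock cochaperone gene Dnaja1 (0.982). Klf10 was most like Ccnt2 (0.993), a cyclin gene of the elongation kinase P-TEFb, and the pseudogene-named Rps15a-ps4 (0.989). For Klf13 they were Gm15975 (0.967) and the chaperone gene Hspa5 (0.943), and 1190007I07Rik (0.991) was among those most like Id2. With so few libraries a high r is common: 5.88% of all tested genes reached 0.8 with Klf2, 4.20% with Klf10 and 8.23% with Id2.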

How the data were processed

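RNA from 6 sorted bone marrow samples was amplified with the Ovation RNA-Seq System V2 kit and sequenced on an Illumina HiSeq, per the labels' protocols. The submitters' processing notes name mm10, Subread, featureCounts, edgeR and limma, without versions or settings. No header names the unit. The authors' deposited values behaved as RPKM: multiplied by exonic gene length (GENCODE M21, GRCm38), 11108 of 15465 genes (71.8%) gave whole reads in all 6 libraries within 0.02 reads. Reads of the remaining genes, including Klf6, Klf10, Klf13 and Id2, are estimates. Amplified reads are not independent molecules, so floors of 3 reads cover counting error only. The other columns hold the authors' log2 fold change, p-value and adjusted p-value, per the file headers, and their test is not named.

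Genotypes were compared with limma 3.58.1 (R 4.3.3) on log2(RPKM + 0.5) for 13179 genes (1 RPKM or more in 3 or more libraries), with a variance trend and Benjamini-Hochberg adjustment over all tested genes at 0.05. Fold changes on this scale understate the change of low genes. The fit was tested on simulated data. Alternatives were other pseudocounts, filters, scalings, weights, a replicate block, limma-voom 3.58.1 on recovered reads and leaving out each library. Members and gene lists were chosen with earlier results of these data known. The text names all members, the 3 genes of each related list with the smallest p, the 2 most abundant genes of each marker list and the 2 genes most like each member, except 2 genes that are not reported here. Without a stated strand setting, overlapping genes cannot be told apart. Promoter sequences are from RefSeq, GRCm38.p6.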

Additional observations from a re-analysis of the deposited data

How the results depend on the processing

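No KLF or ID gene and no gene of the 11 related lists passed under any alternative run. Over all genes the count of calls was 0 in the limma fit and under 9 of the other settings, 1 with array weights (Zfp125), 6 in limma-voom on recovered reads and 72 there with a replicate block. It ranged from 0 to 1 with 1 library left out, the 1 being Gm23130 without wild-type replicate 1 and Gm24455 without wild-type replicate 2. Klf13 turned to 0.050 with array weights. A filter at 5 RPKM left no value for Id2. With 1 library left out the log2 fold change ranged from -1.60 to 0.81 for Klf2, from -0.96 to 0.65 for Klf4, from -0.38 to 0.59 for Klf6, from -0.73 to -0.48 for Klf10, from -0.57 to 0.081 for Klf13 and from -0.25 to 1.24 for Id2. The cause was not tested. The labels number replicates 1 to 3 in both genotypes, and deviations of same-numbered libraries from their group means correlated at 0.015, 0.059 and 0.047. Each knockout library correlated best with the wild-type library of its own number, for replicate 1 by little (0.013 with wild-type replicate 3). Wild-type replicate 1, however, correlated better with knockout replicate 2 (0.035) than with its own number. The same-numbered values lie under 0.1, so whether the numbers mark pairs is not settled, and the main fit did not take them as pairs. With a replicate block in limma, 0 genes passed, and the log2 fold change of Klf10 was -0.59 (adjusted p = 0.638). With the block in limma-voom that of Klf2 was -0.95 (adjusted p = 0.517). Few reads limit the precision of Id3, with at most 21 in any library, and of Id1 outside replicate 2 of each genotype, with at most 2.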
